A study of Mus musculus with 24 samples.

Results

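The genes of glycolysis, glycogen handling and glucose and lactate transport were followed in mouse gastrocnemius, the large calf muscle, with and without a growing tumour. The group holds 38 genes out of 43346 in the deposited count table, chosen by symbol, and all 38 were found and had enough counts to be tested. They comprise 14 enzymes from hexokinase to pyruvate kinase, 4 dehydrogenases of lactate and glycerol phosphate, 4 enzymes of fructose bisphosphate control, 12 genes of glycogen and 4 transporters.

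The study crossed sex with tumour in C57BL6 mice. Female LLC1 and male LLC1 mice carried a subcutaneous tumour, seeded at an age of 7 weeks with the Lewis lung carcinoma line LLC1, which grows in this strain and is much used in work on cachexia, the loss of muscle that tumours can bring. Female and male vehicle mice had received phosphate-buffered saline. Muscle was taken after 3 weeks, and each of the 4 groups held 6 mice, read out as poly(A) RNA in 1 library a mouse. No transgene or deletion is named for any group. Libraries are named here by their group and the number in their title (such as 2-5). The same number recurs in other groups, and the labels do not say what it means. Libraries were taken as separate mice, and a p-value here speaks of the spread among those libraries.

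Glycolysis splits glucose into pyruvate and yields ATP without oxygen, and fast muscle fibres carry it at a very high rate. Muscle stores glucose as glycogen: glycogenin starts the chain, glycogen synthase and the branching enzyme build it from UDP-glucose, and phosphorylase, switched on by phosphorylase kinase, takes it apart. Glucose enters through GLUT1 at all times and through GLUT4 when insulin or contraction calls it to the surface, and lactate leaves through monocarboxylate transporters. Many steps have a muscle form and a more widespread form encoded by separate genes.

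Total counts were 26.2 to 47.4 M (counts in units of 1000000) per library. Each group filled a separate sequencing lane, and the effect of lane cannot be told apart from that of group. Skeletal muscle markers (5 of 5 detected) summed to 49090.3 to 76540.1 CPM over all libraries, where CPM is counts per 1000000 of the normalised library size, so the labelled tissue had its defining transcripts. Neutrophil markers were higher with LLC1 in both sexes (11 of 11 in each), with sums of 3.41 to 9.57 CPM without a tumour and 69.5 to 194 CPM with one. Erythroid markers were likewise higher (6 of 6 tested in each sex), and female LLC1 mouse 2-4 stood apart with 17009 CPM against at most 3680 CPM in the other LLC1 libraries. Of 8 macrophage and monocyte markers tested, 0 passed in females and 1 in males. Of 5 fibro-adipogenic progenitor markers, 1 was higher and 2 were lower in females, and 1 was higher and 3 were lower in males. Of 4 adipocyte markers 0 passed in either sex. Carcinoma-type epithelial markers summed to at most 2.93 CPM in any library.

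Calls below are those of edgeR's quasi-likelihood test over 17773 genes with Benjamini-Hochberg adjustment, at an adjusted p under 0.05. Log2 fold changes are given ± SE with n = 6 mice a group, LLC1 against vehicle unless said otherwise. In females 4 members rose and 6 fell, against 4.97% of all genes tested that rose and 4.95% that fell. In males 5 members rose and 13 fell, against 19.5% and 16.8% of all genes. The median log2 fold change over the members was -0.11 in females and -0.21 in males, beside -0.01 and 0.01 over all genes. A set of 9 members was called the same way in both sexes: Tpi1, Pgk1, Pgam2, Eno1, Eno3 and Pkm were lower, and Gyg, Ugp2 and Slc2a1 were higher. No member was called in opposite directions. The share of all genes called the same way in both sexes was not counted, so this agreement is not shown to be particular to the members.

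**Figure D1:**
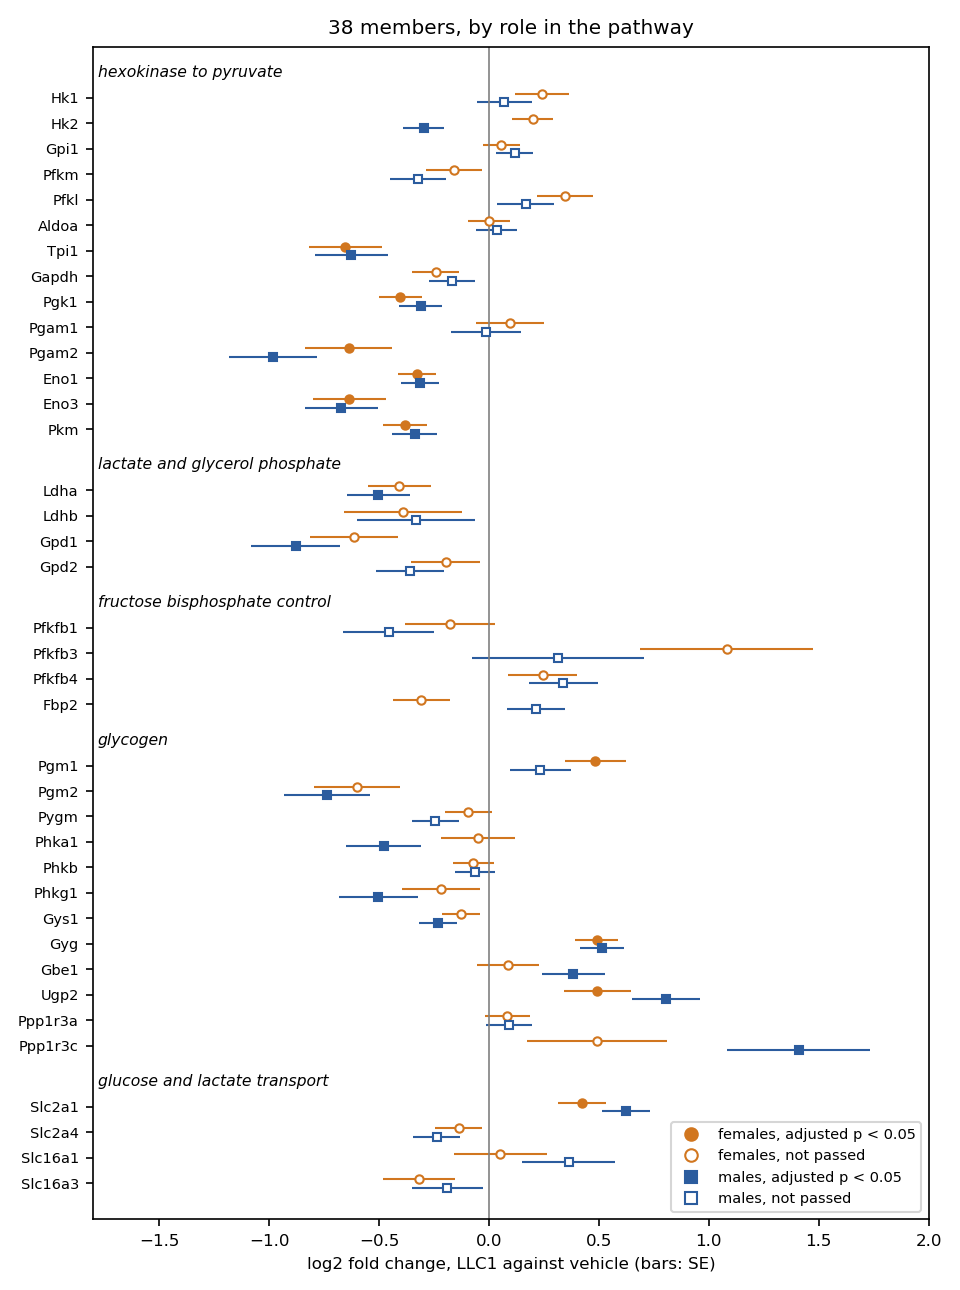
Log2 fold change of LLC1 against vehicle (x axis, points; bars are SE) for the 38 members, grouped by role, in females (orange circles) and males (blue squares). Filled symbols passed at an adjusted p under 0.05. The filled symbols among the enzymes from Tpi1 to Pkm lie left of 0 in both sexes, and those of Gyg, Ugp2 and Slc2a1 lie right of 0.

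The difference of the LLC1 effect between the sexes was tested for every gene, and it was called for 0 of the 38 members and 0% of all genes. At an unadjusted p under 0.05, 2191 genes passed that test, among them the members Hk2 (adjusted p = 0.232) and Fbp2 (adjusted p = 0.289). DESeq2 called 44 genes and limma-voom 0, with 0 members in either. Members called in 1 sex alone are therefore not shown to differ between the sexes. The members together took 5.74% to 6.32% of all counts in vehicle females (median 6.04%), 5.08% to 5.95% in female LLC1 mice (5.28%), 5.29% to 6.21% in vehicle males (5.69%) and 4.27% to 6.01% in male LLC1 mice (5.23%). In bulk muscle, fewer cells of a type and less RNA per cell cannot be told apart.

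Promoter windows were matched for 36 of the 38 members. Shown here are the members called higher in both sexes (Gyg, Ugp2 and Slc2a1) and the 3 called lower in both with the largest falls (Tpi1, Pgam2 and Eno3), so that the sequence at the start of each gene stands beside its values. Each window runs 5′ to 3′ from 250 bases before to 50 bases after the start site, from RefSeq on GRCm38.p6. Capitals mark ACGTG, the core of the hypoxia response element, or CACGTG, the E-box bound by bHLH factors.
Gyg, chr3:20155067-20155366, minus strand: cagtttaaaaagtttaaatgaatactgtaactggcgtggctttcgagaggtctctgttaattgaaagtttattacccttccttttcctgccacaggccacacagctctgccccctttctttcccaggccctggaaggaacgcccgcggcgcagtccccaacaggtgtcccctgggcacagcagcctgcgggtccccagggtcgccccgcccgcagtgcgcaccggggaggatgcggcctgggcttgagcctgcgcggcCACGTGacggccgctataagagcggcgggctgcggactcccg
Ugp2, chr11:21371218-21371517, minus strand: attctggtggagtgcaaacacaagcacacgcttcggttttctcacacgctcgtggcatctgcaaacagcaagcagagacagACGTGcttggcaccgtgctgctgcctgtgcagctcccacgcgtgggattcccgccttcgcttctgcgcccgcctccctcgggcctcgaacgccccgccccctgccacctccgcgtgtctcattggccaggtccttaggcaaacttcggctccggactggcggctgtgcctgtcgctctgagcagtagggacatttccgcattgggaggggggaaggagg
Slc2a1, chr4:119108495-119108794, plus strand: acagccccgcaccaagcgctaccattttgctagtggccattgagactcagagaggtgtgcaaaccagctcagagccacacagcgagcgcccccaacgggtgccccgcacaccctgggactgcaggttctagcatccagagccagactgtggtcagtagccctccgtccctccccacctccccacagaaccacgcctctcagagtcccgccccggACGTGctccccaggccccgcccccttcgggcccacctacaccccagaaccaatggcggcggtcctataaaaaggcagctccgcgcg
Tpi1, chr6:124814109-124814408, minus strand: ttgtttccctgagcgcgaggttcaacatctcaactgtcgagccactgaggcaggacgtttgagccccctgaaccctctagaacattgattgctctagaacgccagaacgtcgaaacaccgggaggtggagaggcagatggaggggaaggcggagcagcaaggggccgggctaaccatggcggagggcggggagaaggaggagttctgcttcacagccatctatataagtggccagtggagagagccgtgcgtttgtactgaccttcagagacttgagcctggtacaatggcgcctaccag
Pgam2, chr11:5803747-5804046, minus strand: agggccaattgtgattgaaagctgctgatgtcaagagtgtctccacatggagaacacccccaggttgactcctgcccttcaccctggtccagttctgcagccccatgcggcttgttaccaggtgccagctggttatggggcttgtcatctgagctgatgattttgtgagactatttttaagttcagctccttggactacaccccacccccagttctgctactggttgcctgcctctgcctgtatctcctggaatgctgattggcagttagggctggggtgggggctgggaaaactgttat
Eno3, chr11:70656926-70657225, plus strand: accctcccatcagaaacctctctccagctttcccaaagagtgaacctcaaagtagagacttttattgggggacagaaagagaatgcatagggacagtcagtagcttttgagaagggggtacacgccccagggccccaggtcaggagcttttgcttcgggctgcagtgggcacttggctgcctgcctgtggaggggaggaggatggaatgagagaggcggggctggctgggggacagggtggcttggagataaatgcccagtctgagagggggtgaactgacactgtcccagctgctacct

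Each motif was searched on both strands, and every CACGTG also counts as ACGTG. The Gyg window has 1 CACGTG. The Ugp2 window shown and the Slc2a1 window have 1 ACGTG each. The windows of Tpi1, Pgam2 and Eno3 have none. Of the other members lower in both sexes, Pgk1 has 2 ACGTG, Pkm has 2 in the second of its 2 windows, and the 3 Eno1 windows have none. ACGTG lies in 19.7% of all 32544 promoter windows of this length and CACGTG in 7.17%. Of the members' 52 windows, 24 hold ACGTG and 7 hold CACGTG. A FoxO-type motif, TGTTTAC, lies in 3.66% of all windows and in 0 of the 52. The loose E-box CANNTG, which takes in CACGTG, lies in 72.3% of all windows and in 39 of the 52. A match is a run of letters and not a shown binding site.

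Calls among the glycolytic enzymes were all falls, and more of them lay at the later steps. From hexokinase to aldolase, 0 of 6 members passed in females and 1 in males. From triose phosphate isomerase to pyruvate kinase, 6 of 8 passed in both. Over all genes tested, 4.95% were lower in females and 16.8% in males. The cut after aldolase was not a planned grouping and was not tested, and in males it rests partly on the threshold. Before the cut, Pfkm had a male log2 fold change of -0.32 (adjusted p = 0.0507) and did not pass. After it, Pgk1 passed at -0.31. Hk2, the main hexokinase of muscle, traps glucose as glucose 6-phosphate. Hk2 ran at 354 to 469 CPM (median 404) in vehicle males and 289 to 354 CPM (median 336) in male LLC1 mice. All male LLC1 libraries lay below all vehicle males, although the nearest values of the groups were almost equal. Its log2 fold change was -0.30 ± 0.09 in males (adjusted p = 0.0151). In females it was 0.20 ± 0.09 (adjusted p = 0.179), with 269 to 366 CPM (median 313) in vehicle females and 286 to 414 CPM (median 374) in female LLC1 mice, and the groups overlapped.

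Aldoa, the muscle aldolase, was the most abundant member per kilobase of exon, at 6124 ± 386 CPM per kb in vehicle females and 5843 ± 626 in vehicle males (mean ± SD). It ran at 15676 to 18471 CPM (median 16947) in vehicle females and 14968 to 20278 CPM (median 15979) in female LLC1 mice. Of the 6 female LLC1 libraries, 2 lay above the highest vehicle female and 3 below the lowest, so LLC1 values spread more widely on both sides. Its log2 fold changes were -0.00 ± 0.09 in females (adjusted p = 0.997) and 0.03 ± 0.09 in males (adjusted p = 0.807). Pfkm, the muscle phosphofructokinase that commits sugar to glycolysis, ran at 3079 to 4605 CPM (median 4141) in vehicle males and 2039.7 to 4210.4 CPM (median 3325) in male LLC1 mice. Its log2 fold change of -0.32 ± 0.13 in males had an adjusted p of 0.0507, and in females it was -0.16 ± 0.13 (0.457). In males Pfkm passed in 4 of the 24 fits that each left out 1 library. Gapdh, the glyceraldehyde 3-phosphate dehydrogenase often used as a reference gene, had log2 fold changes of -0.24 ± 0.10 in females (adjusted p = 0.140) and -0.17 ± 0.10 in males (adjusted p = 0.217) and did not pass in either sex. About 25.1% of its 50-base stretches recur in transcripts of other genes, so its counts are uncertain. Hk1, Gpi1, Pfkl and Pgam1 did not pass in either sex either, with log2 fold changes from -0.01 to 0.35.

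Tpi1, which interconverts the 2 triose phosphates that aldolase makes, lies at chr6:124810586-124814296 (mm10, as for all coordinates of genes here). Tpi1 ran at 1820.4 to 2352 CPM (median 2119.7) in vehicle females and 1077 to 1922 CPM (median 1208) in female LLC1 mice. In males it ran at 1678 to 2187 CPM (median 1913) in vehicle males and 702 to 1828 CPM (median 1122) in male LLC1 mice. In each sex 5 of 6 LLC1 libraries lay below every vehicle library and 1 lay within the vehicle range. Its log2 fold changes were -0.65 ± 0.17 in females (adjusted p = 0.0139) and -0.63 ± 0.17 in males (adjusted p = 0.00531), or 0.64 and 0.65 times the vehicle level. Without female LLC1 mouse 2-3 the female value was -0.58 with an adjusted p of 0.0529.

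Pgam2, the muscle phosphoglycerate mutase (chr11:5801640-5803733), showed the largest fall among the glycolytic enzymes in males. Its levels were 1079 to 1285 CPM (median 1189) in vehicle females and 628 to 1056 CPM (median 719) in female LLC1 mice. In males they were 1005 to 1155 CPM (median 1103) in vehicle males and 249 to 856 CPM (median 509) in male LLC1 mice. All LLC1 libraries lay below all vehicle libraries in both sexes. The log2 fold changes were -0.64 ± 0.20 in females (adjusted p = 0.0423) and -0.98 ± 0.20 in males (adjusted p = 0.000797). The female call was lost in 14 of 24 fits that left out 1 library (adjusted p = 0.0505 to 0.120), and the male call was kept in all 24. Of 9 other settings, the female call was kept in 7 and the male call in 9. Among the members, 4 in each sex had LLC1 and vehicle libraries that did not overlap (10.5%), against 6.55% of all genes in females and 10.3% in males. These were Pgam2, Pgm2, Gyg and Slc2a1 in females and Hk2, Pgam2, Gyg and Slc2a1 in males.

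The enolases turn phosphoglycerate into phosphoenolpyruvate. Eno3, the muscle enolase (chr11:70657202-70662513), ran at 5324 to 6346 CPM (median 6059.8) in vehicle females and 3193 to 5353 CPM (median 3496) in female LLC1 mice. Male levels were 4577 to 6431 CPM (median 5422) in vehicle males and 1775 to 4877 CPM (median 3279) in male LLC1 mice. In each sex 5 of 6 LLC1 libraries lay below all vehicle libraries. Its log2 fold changes were -0.64 ± 0.17 in females (adjusted p = 0.0172) and -0.67 ± 0.17 in males (adjusted p = 0.00352). The widespread form Eno1 (chr4:150236721-150248879) ran at 81.4 to 113 CPM (median 89.8) in vehicle females and 62.1 to 86.9 CPM (median 75.7) in female LLC1 mice, and at 70.9 to 87.2 CPM (median 80.2) in vehicle males and 56.2 to 71.4 CPM (median 62.4) in male LLC1 mice. Again 5 of 6 LLC1 libraries of each sex lay below all vehicle libraries. Eno1 changed by -0.33 ± 0.09 in females (adjusted p = 0.0161) and -0.31 ± 0.09 in males (adjusted p = 0.00685). In females Eno3 lost its call without LLC1 mouse 1-4 or 2-3 (adjusted p = 0.0536 and 0.0620), and Eno1 without LLC1 mouse 2-3 or vehicle mouse 1-1 or 2-1 (0.0592 to 0.0734).

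Pgk1 and pyruvate kinase are the ATP-making steps. Pgk1 (chrX:106187100-106203699) ran at 681 to 866 CPM (median 821) in vehicle females and 527 to 770.1 CPM (median 567) in female LLC1 mice. Male levels were 729 to 879 CPM (median 772) in vehicle males and 511 to 744 CPM (median 644) in male LLC1 mice. Its groups overlapped by 1 LLC1 library in each sex. The log2 fold changes were -0.40 ± 0.10 in females (adjusted p = 0.0106) and -0.31 ± 0.10 in males (adjusted p = 0.0160), and the call was kept in all 24 fits that left out 1 library in both sexes. Pkm, pyruvate kinase (chr9:59656368-59679375), ran at 3199 to 3806 CPM (median 3527) in vehicle females and 2273 to 3429.9 CPM (median 2493) in female LLC1 mice, and at 3169 to 3952 CPM (median 3721) in vehicle males and 2332 to 3379 CPM (median 2898) in male LLC1 mice. Of the 6 LLC1 libraries, 5 in females and 4 in males lay below all vehicle libraries. Pkm changed by -0.38 ± 0.10 in females (adjusted p = 0.0175) and -0.34 ± 0.10 in males (adjusted p = 0.0115). In females it lost its call without LLC1 mouse 1-4, 1-5 or 2-3 or without vehicle mouse 2-3 (adjusted p = 0.0532 to 0.0729). Of the 50-base stretches of Pgk1, Pkm and Eno1, 53.9%, 25.8% and 26.0% recur in transcripts of other genes, so part of their counts depends on how shared reads were treated, which is not given in the sources used here.

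**Figure D2:**
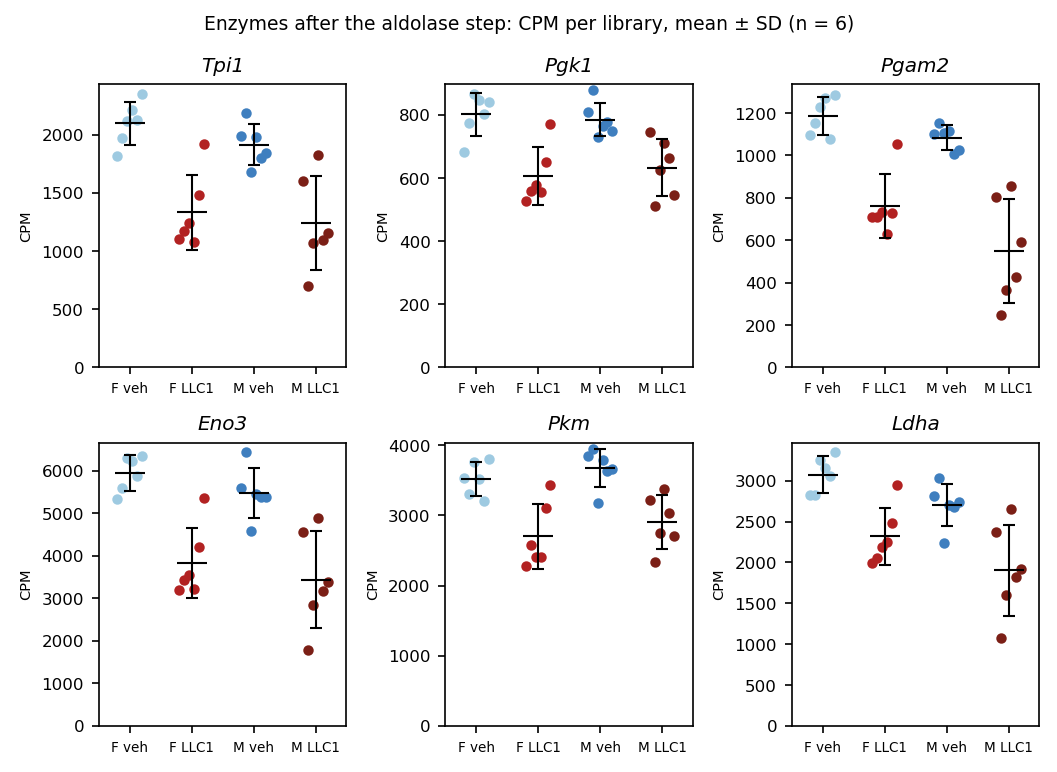
CPM (y axis, from 0) of 6 enzymes after the aldolase step in each library, by group (x axis: F female, M male, veh vehicle); points are libraries and the bar and whiskers are mean ± SD (n = 6). Pgam2 is lower in every LLC1 library than in every vehicle library of its sex, and for Tpi1, Eno3 and Ldha 1 or 2 LLC1 libraries reach the vehicle range. Of the enzymes from Tpi1 to Pkm, Eno1 is not shown, nor are Gapdh and Pgam1, which did not pass in either sex.

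The same few libraries set the ends of these ranges. Female LLC1 mouse 2-5 was the highest of its group for all 6 members called lower in females and lay within the vehicle range for 5 of them, and it was the lowest of its group for all 4 called higher. Male LLC1 mouse 1-5 was the lowest of its group for all 13 members called lower in males. Male LLC1 mouse 2-2 was the highest for 9 of the 13 and lay within the vehicle range for 9, and male LLC1 mouse 1-4 lay within it for 7. Without male LLC1 mouse 1-5, 12 members were lower and 5 higher in males. Without female LLC1 mouse 2-5, 10 members were lower and 4 higher in females, and without female LLC1 mouse 2-3, 1 was lower (Pgk1) and 3 were higher. The calls over all genes moved too. In males 2288 genes were lower and 2696 higher without LLC1 mouse 1-5, against 2987 and 3462 with all libraries. In females 1118 were lower and 983 higher without LLC1 mouse 2-5, against 879 and 884. Without female LLC1 mouse 2-3 they were 312 and 607.

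Lactate and glycerol phosphate dehydrogenases reoxidise the NADH of glycolysis. Ldha, the muscle lactate dehydrogenase subunit, ran at 2238 to 3034 CPM (median 2722) in vehicle males and 1080.1 to 2652 CPM (median 1866) in male LLC1 mice. In males 4 of 6 LLC1 libraries lay below every vehicle library, and the log2 fold change was -0.50 ± 0.14 (adjusted p = 0.00863). In females Ldha ran at 2821 to 3354 CPM (median 3103) in vehicle females and 1989.6 to 2947 CPM (median 2214) in female LLC1 mice, with a log2 fold change of -0.41 ± 0.14 (adjusted p = 0.0701). Gpd1, the cytosolic glycerol phosphate dehydrogenase, ran at 590.2 to 775 CPM (median 729) in vehicle males and 146 to 601 CPM (median 386) in male LLC1 mice. Its male fall of -0.88 ± 0.20 passed (adjusted p = 0.00197), and 5 of 6 LLC1 libraries lay below all vehicle males. In females, at 579.5 to 816 CPM (median 739) in vehicle females and 402 to 636 CPM (median 426) in female LLC1 mice, its log2 fold change was -0.62 ± 0.20 (adjusted p = 0.0520), and 5 of 6 LLC1 libraries again lay below all vehicle libraries. In females Ldha passed in 3 and Gpd1 in 4 of the 24 fits that left out 1 library, and in 4 and 5 of 9 other settings. Gpd1 overlaps the gene Gm16537 on the other strand over 13.0% of its exon length, and the library kit keeps no strand. Ldhb, the heart-type subunit, did not pass, with log2 fold changes of -0.39 ± 0.27 in females (adjusted p = 0.383) and -0.33 ± 0.27 in males (adjusted p = 0.349). The mitochondrial enzyme Gpd2 did not pass either, at -0.20 ± 0.16 in females (adjusted p = 0.457) and -0.36 ± 0.16 in males (adjusted p = 0.0739).

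Fructose 2,6-bisphosphate is the strongest activator of phosphofructokinase, and its level is set by the Pfkfb enzymes. None of the 4 members of fructose bisphosphate control (the Pfkfb genes and Fbp2) passed with LLC1 in either sex. Pfkfb3, an isoform with high kinase activity, spread most. It ran at 81.8 to 368 CPM (median 225) in vehicle females and 319.5 to 812 CPM (median 409.5) in female LLC1 mice. Male levels were 236 to 766 CPM (median 594) in vehicle males and 336 to 1678 CPM (median 567) in male LLC1 mice. The log2 fold changes were 1.08 ± 0.40 in females (adjusted p = 0.0844) and 0.31 ± 0.39 in males (adjusted p = 0.558), and LLC1 and vehicle ranges overlapped in each sex. In females Pfkfb3 passed without male LLC1 mouse 2-2, whose library entered the shared estimate of the spread (adjusted p = 0.0409), and with limma-voom (0.0403). Pfkfb1, Pfkfb4 and the muscle fructose bisphosphatase Fbp2 had log2 fold changes from -0.46 (Pfkfb1 in males) to 0.34 (Pfkfb4 in males).

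Calls among the glycogen genes went in both directions in males. Of the 12, 3 rose and 0 fell in females, beside 4.97% and 4.95% of all genes tested. In males 4 rose and 4 fell, beside 19.5% and 16.8% of all genes, so calls in both directions were common over all genes too. The female rises include the scarce gene under the symbol Pgm1, described below. Gyg, glycogenin, which primes a new glycogen particle (chr3:20122084-20155317), ran at 263 to 327 CPM (median 296) in vehicle females and 382 to 461 CPM (median 416) in female LLC1 mice. Male levels were 264 to 391 CPM (median 358) in vehicle males and 400.0 to 581 CPM (median 497) in male LLC1 mice. All LLC1 libraries lay above all vehicle libraries in both sexes. The log2 fold changes were 0.49 ± 0.10 in females (adjusted p = 0.00251) and 0.51 ± 0.10 in males (adjusted p = 0.000466), or 1.40 and 1.43 times the vehicle level, and both calls were kept in all 24 fits that left out 1 library.

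Ugp2 makes UDP-glucose, the sugar donor for glycogen (chr11:21321138-21371201). Ugp2 ran at 495 to 697 CPM (median 559) in vehicle females and 637 to 996 CPM (median 835) in female LLC1 mice. In males the levels were 539 to 797 CPM (median 669.9) in vehicle males and 791 to 1928 CPM (median 1104) in male LLC1 mice. In each sex 5 of 6 LLC1 libraries lay above all vehicle libraries. Its log2 fold changes were 0.49 ± 0.15 in females (adjusted p = 0.0423) and 0.80 ± 0.15 in males (adjusted p = 0.000476). The female call was lost in 10 of 24 fits that left out 1 library (adjusted p = 0.0503 to 0.0899), and the male call was kept in all 24. Of 9 other settings, the female call was kept in 7 and the male call in 9.

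Ppp1r3c, a targeting subunit that brings protein phosphatase 1 to glycogen, had the largest rise of any member in males. It ran at 177 to 568 CPM (median 332) in vehicle males and 352 to 1380.3 CPM (median 889.9) in male LLC1 mice. Of the 6 male LLC1 libraries 5 lay above all vehicle males, and the log2 fold change was 1.41 ± 0.32 (adjusted p = 0.00218). Females ran at 288 to 1169 CPM (median 561) in vehicle females and 572 to 1107 CPM (median 883) in female LLC1 mice, and every LLC1 value lay within the vehicle range. Their log2 fold change was 0.49 ± 0.32 (adjusted p = 0.348), and the difference between the sexes had an adjusted p of 0.414. The branching enzyme Gbe1 ran at 50.3 to 73.7 CPM (median 59.6) in vehicle males and 54.6 to 106 CPM (median 78.7) in male LLC1 mice, and 4 of 6 male LLC1 libraries lay above all vehicle males. Gbe1 rose by 0.38 ± 0.14 in males (adjusted p = 0.0380) and had a log2 fold change of 0.09 ± 0.14 in females (0.755). Its male call was lost in 7 of 24 fits that left out 1 library (adjusted p = 0.0507 to 0.130). It was kept in only 4 of 9 other settings. With limma-voom the adjusted p was 0.0520, and with a block on the full title number the log2 fold change was 0.11 (0.562).

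Phosphoglucomutase links glucose 1-phosphate with glucose 6-phosphate, and 2 genes named for it are members under the symbols of the deposited table. The symbol Pgm2 there is the abundant muscle gene at chr4:99929414-99987294, which RefSeq names Pgm1, and the symbol Pgm1 is a gene at chr5:64092936-64128355, which RefSeq names Pgm2. Deposited Pgm2 ran at 1197 to 1515 CPM (median 1269) in vehicle females and 742 to 1137 CPM (median 797) in female LLC1 mice. Male levels were 1221 to 1574 CPM (median 1368) in vehicle males and 327 to 1285 CPM (median 837) in male LLC1 mice. All female LLC1 libraries and 5 of 6 male ones lay below all vehicle libraries of their sex. Pgm2 had log2 fold changes of -0.60 ± 0.20 in females (adjusted p = 0.0527) and -0.74 ± 0.20 in males (adjusted p = 0.00583), so only the male value passed. In females it passed in 4 of the 24 fits that left out 1 library and in 5 of 9 other settings. Its exons overlap Itgb3bp on the other strand over 13.6% of their length. Deposited Pgm1 was far scarcer, at 2.23 to 3.25 CPM (median 2.65) in vehicle females and 3.19 to 4.40 CPM (median 3.77) in female LLC1 mice. It rose by 0.48 ± 0.14 in females (adjusted p = 0.0268) and had a log2 fold change of 0.23 ± 0.14 in males (0.197). Which sugar phosphates its enzyme acts on was not examined, so its rise is not read as a change in this step. The female call of Pgm1 was lost without LLC1 mouse 2-1 or 2-3 or vehicle mouse 1-4 or 2-1 (adjusted p = 0.0543 to 0.0612).

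Phosphorylase kinase switches on glycogen phosphorylase and has a regulatory alpha subunit in muscle (Phka1), a beta subunit (Phkb) and a catalytic muscle gamma subunit (Phkg1). Phka1 ran at 1023 to 1788 CPM (median 1493) in vehicle males and 457 to 1404 CPM (median 1066) in male LLC1 mice, with a log2 fold change of -0.48 ± 0.17 (adjusted p = 0.0307). Phkg1 ran at 386 to 569.7 CPM (median 472) in vehicle males and 149.6 to 488 CPM (median 350.2) in male LLC1 mice, with -0.50 ± 0.18 (adjusted p = 0.0295). Of the 6 male LLC1 libraries, 2 for Phka1 and 4 for Phkg1 lay below all vehicle males, and the rest overlapped. In females the log2 fold changes were -0.05 ± 0.17 and -0.22 ± 0.18 (adjusted p = 0.892 and 0.470). The phosphorylase gene itself, Pygm, ran at 6548 to 8815 CPM (median 8011) in vehicle males and 5185 to 7992 CPM (median 6642) in male LLC1 mice, and its log2 fold changes were -0.09 ± 0.11 in females (adjusted p = 0.632) and -0.24 ± 0.11 in males (adjusted p = 0.0769). Phkb did not pass, with log2 fold changes of -0.07 ± 0.09 in females (adjusted p = 0.675) and -0.06 ± 0.09 in males (adjusted p = 0.615). Ppp1r3a, the main phosphatase subunit on muscle glycogen, did not pass either, at 0.08 ± 0.10 in females (adjusted p = 0.661) and 0.09 ± 0.10 in males (adjusted p = 0.517). Gys1, muscle glycogen synthase, ran at 389 to 494 CPM (median 471) in vehicle males and 301 to 437 CPM (median 399.6) in male LLC1 mice with a log2 fold change of -0.23 ± 0.09 in males (adjusted p = 0.0375), against -0.13 ± 0.09 in females (0.367). The male calls of Phka1, Phkg1 and Gys1 were lost in 5, 4 and 7 of the 24 fits that left out 1 library, with adjusted p of at most 0.0745, 0.0705 and 0.105. They were kept in 6, 6 and 5 of 9 other settings.

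**Figure D3:**
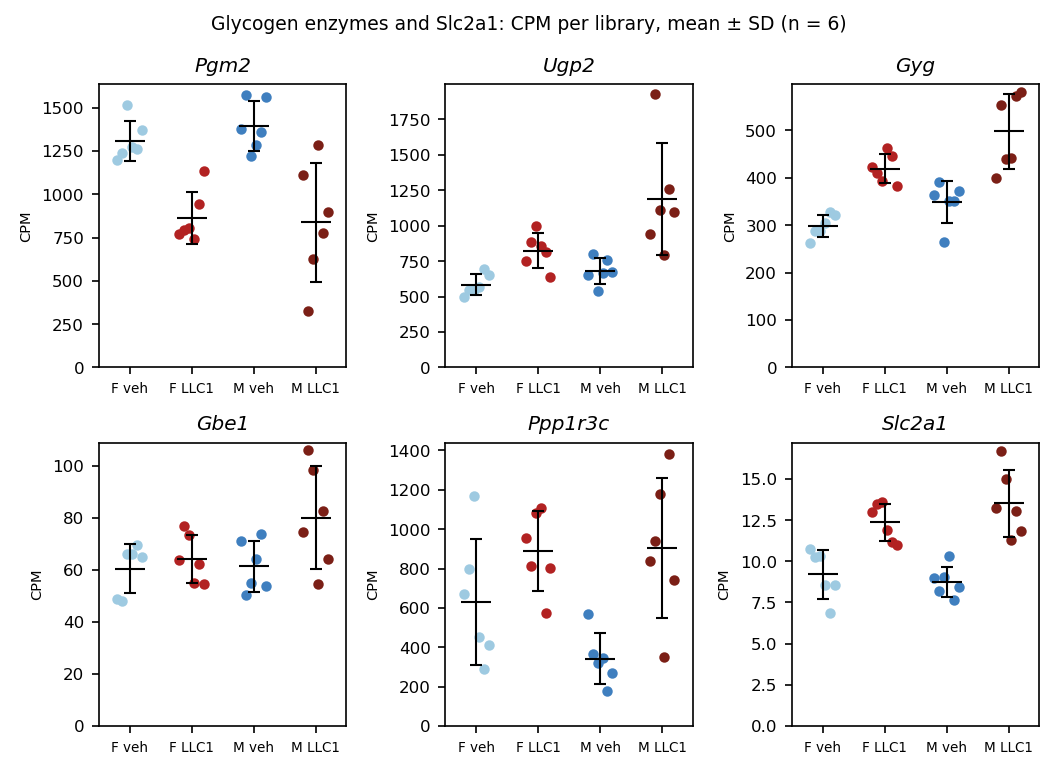
CPM (y axis, from 0) of 5 glycogen genes and Slc2a1 in each library, by group (x axis: F female, M male, veh vehicle); points are libraries and the bar and whiskers are mean ± SD (n = 6). Gyg and Slc2a1 are higher in every LLC1 library than in every vehicle library of their sex, and Pgm2 (symbol of the deposited table) is lower in every female LLC1 library than in every vehicle female.

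Among the transporters, Slc2a1, which encodes GLUT1, lies at chr4:119108711-119137330 and rose in both sexes. Slc2a1 ran at 6.85 to 10.7 CPM (median 9.42) in vehicle females and 11.0 to 13.6 CPM (median 12.4) in female LLC1 mice. Male levels were 7.66 to 10.3 CPM (median 8.68) in vehicle males and 11.3 to 16.7 CPM (median 13.1) in male LLC1 mice. All LLC1 libraries lay above all vehicle libraries in both sexes. Its log2 fold changes were 0.42 ± 0.11 in females (adjusted p = 0.0147) and 0.62 ± 0.11 in males (adjusted p = 0.000202), and the calls passed under every setting run. Slc2a1 is also made by red cell precursors and endothelial cells. Beside it, erythroid markers summed to 364 to 915 CPM without a tumour and 1035 to 17009 CPM with one, and endothelial markers to 215 to 371 CPM and 223 to 373 CPM. Of the 6 endothelial markers, Pecam1 and Vwf were higher in both sexes, and Kdr and Emcn were lower in males. The part of these cells in the Slc2a1 result was not tested.

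Slc2a4, which encodes the insulin-responsive GLUT4, ran at 470.1 to 559 CPM (median 500.0) in vehicle females and 395 to 546 CPM (median 454) in female LLC1 mice. In males it ran at 421 to 572 CPM (median 549) in vehicle males and 308 to 544 CPM (median 452) in male LLC1 mice. Its groups overlapped, and its log2 fold changes were -0.14 ± 0.11 in females (adjusted p = 0.454) and -0.24 ± 0.11 in males (adjusted p = 0.0858). Per kilobase of exon, Slc2a4 stood at 145 ± 10.3 CPM in vehicle females and Slc2a1 at 3.23 ± 0.522 (mean ± SD), so GLUT4 transcript remained much the more abundant in every group. The lactate exporter gene Slc16a3 (MCT4) and Slc16a1 (MCT1) did not pass, with log2 fold changes of -0.32 ± 0.16 in females (adjusted p = 0.222) and -0.19 ± 0.16 in males (adjusted p = 0.380) and of 0.05 ± 0.21 in females (adjusted p = 0.911) and 0.36 ± 0.21 in males (adjusted p = 0.184).

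The balance between 2 genes was measured within each library as the log2 ratio of their counts, with 0.5 added to each. Most pairs are forms of one enzyme or transporter, while Gpd1 and Gpd2 are the cytosolic and mitochondrial enzymes, and Gys1 and Pygm build glycogen and take it apart. These ratios are not per length, so only their differences between groups are read. A set of 10 pairs was tested in each sex with an exact two-sided permutation test over all regroupings of 6 against 6, and p-values were adjusted over the 20 tests. Of these, 9 passed. The Slc2a4 to Slc2a1 ratio ran from 5.45 to 6.15 in vehicle females and 5.01 to 5.63 in female LLC1 mice, and from 5.54 to 6.18 in vehicle males and 4.20 to 5.53 in male LLC1 mice. It was lower with LLC1 by a log2 difference of -0.58 in females (adjusted exact p = 0.0289) and -0.87 in males (0.0216), and the male groups did not overlap.

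The Gpd1 to Gpd2 ratio ran from 1.07 to 1.49 in vehicle females and 0.64 to 1.08 in female LLC1 mice, and from 1.18 to 1.50 in vehicle males and 0.34 to 1.00 in male LLC1 mice. Its difference was -0.43 in females (adjusted exact p = 0.0260) and -0.59 in males (0.0216), where the groups again did not overlap. For Pgam2 to Pgam1 the differences were -0.75 (0.0481) and -1.11 (0.0260), and for Pfkm to Pfkl -0.52 and -0.52 (0.0481 in each sex). Of the 50-base stretches of Pgam1, 36.2% recur in transcripts of other genes, so its counts are uncertain. Its own log2 fold changes were 0.09 in females and -0.01 in males. In all 4 pairs the first gene was lower relative to the second in both sexes. The Pfkfb3 to Pfkfb1 ratio was higher by 1.43 in females (0.0260) and had a difference of 0.65 in males (0.186). Eno3 to Eno1 (-0.33 and -0.42, adjusted exact p = 0.0613 and 0.0519) and Hk2 to Hk1 in males (-0.36, 0.0613) did not pass. Nor did Hk2 to Hk1 in females, Ldha to Ldhb, Slc16a3 to Slc16a1 or Gys1 to Pygm, with differences from -0.48 to 0.01. Leaving out single libraries brought the number of tests passed to between 3 and 12.

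**Figure D4:**
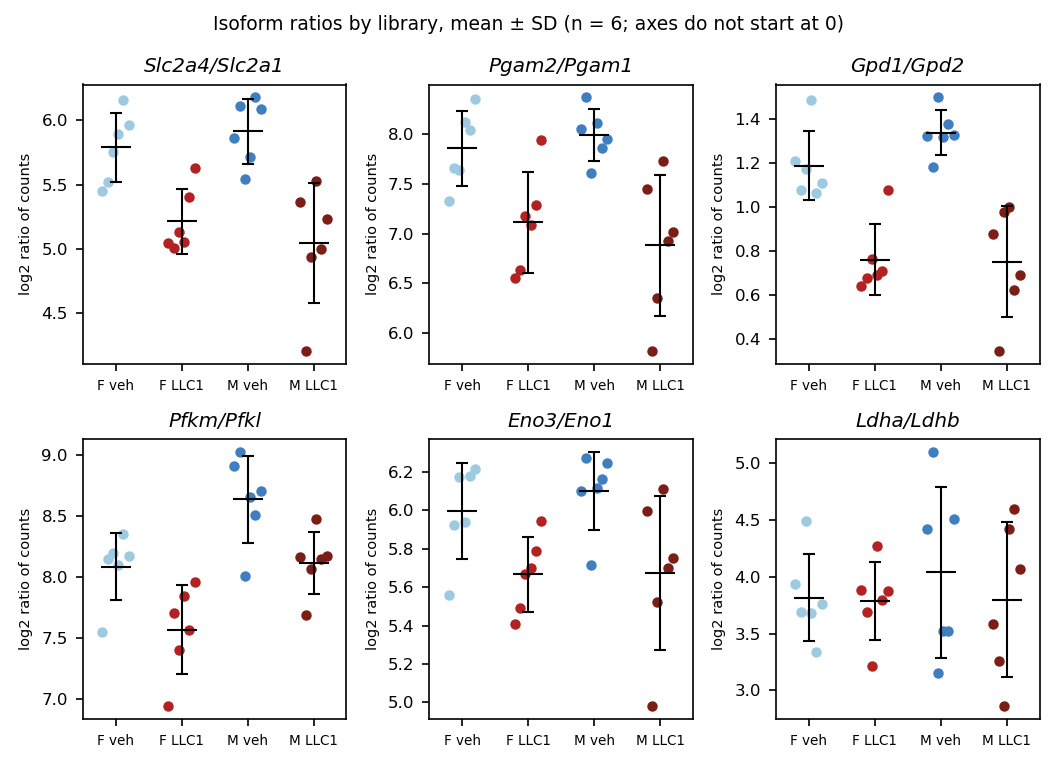
Log2 ratio of the counts of 2 genes in the same library (y axis, not starting at 0) for 6 pairs, by group (x axis: F female, M male, veh vehicle); points are libraries and the bar and whiskers are mean ± SD (n = 6). The Slc2a4 to Slc2a1 and Gpd1 to Gpd2 ratios of male LLC1 libraries lie below all vehicle males, and the Ldha to Ldhb groups overlap in both sexes.

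Other genes of the pathway were counted from a list of 59, of which 51 were tested. In females 8 rose and 4 fell, beside 4.97% and 4.95% of all genes tested. In males 12 rose and 7 fell, beside 19.5% and 16.8% of all genes, so the male counts lie near the background. A set of 7 rose in both sexes (Gaa, Gsk3b, Slc2a6, Arrdc4, Mlxip, Tbc1d4 and Hif1a) and 3 fell in both (Ldhd, Pfkfb2 and Slc2a10). For these too, the share of all genes called in both sexes was not counted. Gaa, the lysosomal enzyme that digests glycogen, rose by 0.57 ± 0.15 in females and 0.83 ± 0.15 in males (adjusted p = 0.0162 and 0.000274), with all LLC1 libraries above all vehicle libraries in each sex. Gsk3b, a kinase that inactivates glycogen synthase, rose by 0.50 ± 0.12 and 0.77 ± 0.12 (0.00852 and 6.41e-05). Tbc1d4, which holds GLUT4 inside the cell, rose by 0.53 ± 0.13 in females (0.0113), and its relative Tbc1d1 by 0.86 ± 0.27 in males (0.0151). Arrdc4, an arrestin that promotes removal of glucose transporters, rose by 0.51 ± 0.14 and 0.79 ± 0.14 (0.0200 and 0.000177).

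Scarcer transporters and kinases also passed. Slc2a6 rose by 0.69 ± 0.17 in females and 1.61 ± 0.18 in males (adjusted p = 0.0108 and 1.23e-06), from medians of 0.715 and 0.426 CPM in vehicle to 1.14 and 1.40 CPM in LLC1 mice. Slc2a3, which encodes the neuronal and white cell transporter GLUT3, rose by 1.20 ± 0.17 in females (4.45e-05), from a median of 4.05 to 9.85 CPM. In males its log2 fold change of 0.32 ± 0.16 did not pass (0.113), with 7.71 to 17.5 CPM (median 16.2) in vehicle males and 12.5 to 21.4 CPM (median 18.5) in male LLC1 mice. Vehicle males stood above vehicle females in Slc2a3 by 1.78 ± 0.17 (8.44e-08), and the difference of the LLC1 effect between the sexes had an adjusted p of 0.232. Hk3, the hexokinase of white cells, rose by 0.59 ± 0.22 in males (0.0415). The neutrophil markers rose in the same libraries, and their part in Slc2a6, Slc2a3 and Hk3 was not tested. Adpgk, an ADP-dependent glucokinase, rose by 0.57 ± 0.13 and Emb, the partner of a lactate transporter, by 0.97 ± 0.27 in males (0.00211 and 0.00757). Among the falls, Slc2a10 had log2 fold changes of -0.54 ± 0.16 and -0.58 ± 0.16 (0.0326 and 0.00723). Ldhd, the mitochondrial D-lactate dehydrogenase, changed by -0.55 ± 0.10 in males (0.000237). Prkag3, the AMPK subunit of fast glycolytic muscle, changed by -1.46 ± 0.34 in males (0.00259), with all LLC1 libraries below all vehicle males.

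Fibre markers were read beside these genes, since fast fibres carry most glycolytic enzyme. Of 9 fast glycolytic fibre markers, Pvalb and Myl1 were lower in both sexes and Myh1 in males, and the other 6 did not pass in either sex. The summed fast markers ran from 133426 to 171722 CPM in vehicle females, 117632 to 173319 in female LLC1 mice, 136014 to 187199 in vehicle males and 115440 to 172835 in male LLC1 mice, and overlapped in both sexes. Among male LLC1 mice, 1-5 had the lowest sum and 2-2 the highest. Female LLC1 mouse 2-5 had the highest of its group. The lowest female LLC1 sum was that of mouse 2-1, which was lowest for 0 of the 6 members called lower. Male LLC1 mouse 1-4, within the vehicle range for 7 members called lower, had 133104 CPM, below all vehicle males. Of 8 slow oxidative fibre markers 0 passed in either sex. The part of fibre type in the falls of glycolytic genes was not tested.

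In vehicle mice, males and females differed in 4 members. Hk2, Pfkfb3 and Phkb were higher in males, against 3.28% of all genes that were higher, and Fbp2 was lower, against 2.95%. Fbp2, the muscle fructose bisphosphatase (chr13:62836884-62858400), ran at 63.6 to 89.0 CPM (median 73.5) in vehicle females and 35.7 to 44.8 CPM (median 38.3) in vehicle males. The groups did not overlap, and the log2 fold change of males against females was -0.93 ± 0.13 (adjusted p = 6.26e-05). In LLC1 mice Fbp2 ran at 52.8 to 75.4 CPM (median 58.7) in females and 30.3 to 68.0 CPM (median 44.8) in males, with overlap. Hk2 differed by 0.37 ± 0.09 (0.0164), with the vehicle ranges given above. Phkb ran at 459 to 567 CPM (median 539.7) in vehicle females and 537 to 779 CPM (median 683) in vehicle males, with overlap, and differed by 0.36 ± 0.09 (0.0180).

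Pfkfb3 differed by 1.35 ± 0.40 (0.0451), and the vehicle ranges given above overlapped. The Pfkfb3 call was lost in 16 of 24 fits that left out 1 library (adjusted p = 0.0505 to 0.104), that of Hk2 without vehicle male 2-5 (0.0542), and that of Phkb without vehicle male 1-2 or 2-5 (0.0538 and 0.0547). With scaling by total counts, 292 genes were higher and 1131 lower in males, against 583 and 524 here, and the all-gene median moved from -0.01 to -0.11. With that scaling Hk2 was at 0.28 (adjusted p = 0.0558), Pfkfb3 at 1.23 (0.0517) and Phkb at 0.27 (0.0203), and of the members 1 was then higher and 3 were lower. In the same comparison the slow fibre markers had a median log2 fold change of -1.08 with 0 of 8 passed, and the adipocyte markers one of -1.36 with 0 of 4 passed. Their part in these differences was not tested.

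**Figure D5:**
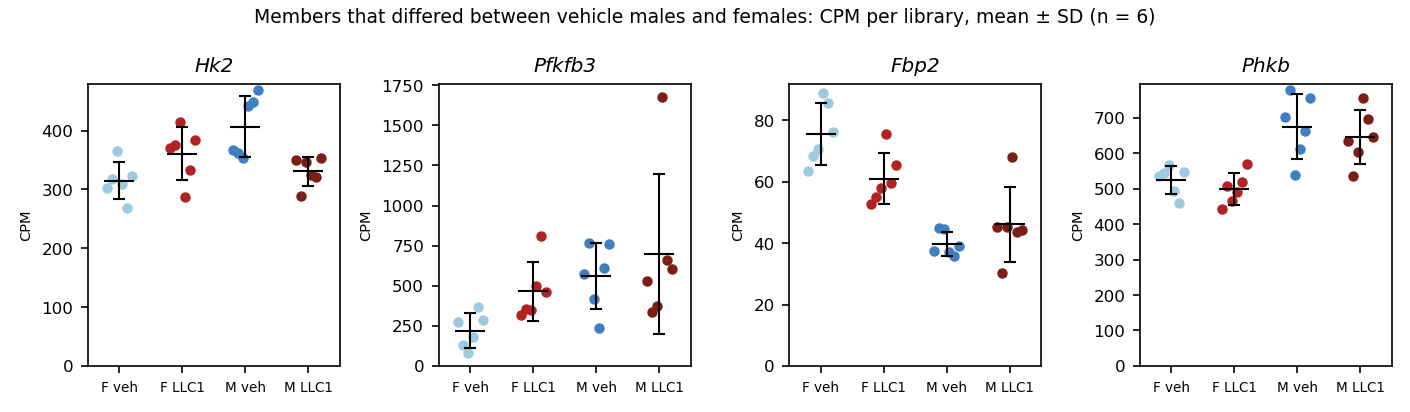
CPM (y axis, from 0) of the 4 members that differed between vehicle males and vehicle females in each library, by group (x axis: F female, M male, veh vehicle); points are libraries and the bar and whiskers are mean ± SD (n = 6). Fbp2 is lower in every vehicle male than in every vehicle female, and the Pfkfb3 ranges of the vehicle groups overlap.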

How the data were processed

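Gastrocnemius RNA of 24 mice was measured as poly(A) RNA-seq, from libraries made with a kit that keeps no strand, per the labels' protocols. The authors deposited a table of raw counts per gene. The submitters' processing notes name CASAVA, STAR, featureCounts and the build mm10. Their versions, the gene annotation and how reads matching several genes were handled were not given in the sources used here. Samples were grouped by the sex and treatment in their labels.

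Genes were filtered with filterByExpr, leaving 17773 of 43346, scaled by TMM (factors 0.924 to 1.10) and fitted in edgeR 4.0.16 (R 4.3.3) as 4 group means with quasi-likelihood tests and Benjamini-Hochberg adjustment over all genes tested (20 residual df, common BCV 0.174). The fit was also run on simulated counts with the same spread for every gene and changes in female LLC1 libraries alone. That setting is simpler than these data, and no result here rests on it. Ratios of gene pairs used exact permutation tests (scipy 1.17.1). Alternatives were other scalings, no filter, DESeq2 1.42.0, limma 3.58.1 with voom, 2-group fits, blocks by title number and leaving out each library. For members that passed in females, males or the sex difference, fold change, SE and adjusted p are given in both sexes. Their CPM ranges are given at least for the sex in which they passed. Other members of each role are given beside them. Other pathway genes are named where they passed with a log2 change of 0.5 or in both sexes. The members and lists were chosen with earlier results of these data known. Promoters are from RefSeq. Sequences of proteins were not used here. Depth sets counting error only, and spread between mice sets the errors given.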

Additional observations from a re-analysis of the deposited data

Results flagged for a closer look

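Each member was examined in each of the 4 groups (152 groups in all). A value was flagged where the gap of a single library to the nearest of the others was large against the range of its group. There were 10 flagged values, and some libraries were flagged for several members. Chance gives about 1 in 20 groups.

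Among enzymes, Pgam2 stood at 1056 CPM in female LLC1 mouse 2-5, against at most 735 CPM in the other female LLC1 mice. Hk1 stood at 13.6 CPM in vehicle male 1-3, with the next at 10.7 CPM. Pfkfb3 was high in female LLC1 mouse 2-4, at 812 CPM with the next at 496 CPM, and in male LLC1 mouse 2-2, at 1678 CPM with the next at 661 CPM. Pfkfb4 was high in vehicle female 1-4, at 69.0 CPM against 53.8 CPM.

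The same vehicle male 1-3 was low for Gyg, at 264 CPM with the next at 350 CPM, and for Slc2a4, at 421 CPM with the next at 521 CPM. The lactate exporter gene Slc16a3 was high in female LLC1 mouse 2-5 (323 CPM, next 227 CPM) and in vehicle female 1-4 (392 CPM, next 280 CPM), and low in male LLC1 mouse 1-5 (155 CPM, next 294 CPM). Causes were not tested.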

How the results depend on the processing

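No member changed direction in a called value under any setting: of 3762 comparisons of a member's result with an alternative, 3570 stayed on their side of the threshold, 115 lost a call and 77 gained one. With sample weights in limma-voom, 7 members were higher and 12 lower in females, and 8 were higher and 2 lower in vehicle males against vehicle females. With scaling by total counts, 1 was higher and 3 were lower in that last comparison. The cause was not tested. Over all genes, females had 1763 calls against 4046 with sample weights and 480 with a block on the full title number, males 6449 against 3607 with that block, and the vehicle groups 1107 against 2475 and 269. With total counts, 64.8% of male calls were higher, against 53.7%. The sex difference had 0 members called in every setting. Over all genes it had 44 calls with DESeq2 and 6 with the first digit of the title number as a block. There were 3 with voom and weights, 1 with total counts and 7 without male LLC1 mouse 1-4.

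Leaving out 1 library gave 2 to 5 members higher and 1 to 10 lower in females, 4 to 6 higher and 10 to 17 lower in males, and 0 to 5 higher and 1 lower between the vehicle groups. Over all genes the same fits gave 919 to 2283 calls in females, 4984 to 7154 in males and 659 to 1476 between the vehicle groups. In females the higher count was 2 without LLC1 mouse 2-1 or vehicle mouse 1-4 or 2-1, and the lower count was 3 without LLC1 mouse 1-4. Between the vehicle groups the higher count was 0 without vehicle male 2-5, 1 without 1-2 and 5 without 1-3. Of the 20 ratio tests 9 passed, and 3 to 12 with 1 library left out. The number was 3 without female LLC1 mouse 1-4, 1-5, 2-1 or 2-3 or vehicle female 1-4, 2-1 or 2-3, and 5 without vehicle female 2-2.

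For libraries of one sex that share a title number, the correlations of deviations were 0.063, -0.167 and -0.116 in females and -0.065, -0.011 and -0.012 in males. So few pairs, with no other pairs set beside them, cannot exclude pairing. With the full number as a replicate block, 2 members were higher and 0 lower in females, 4 higher and 7 lower in males, and 1 higher and 1 lower between the vehicle groups. With the first digit as the block the counts were 4 and 9 in females, 5 and 16 in males, and 3 and 1.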
